A study of Mus musculus with 28 samples.

Results

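The comparison of dissected midbrain with dissected cortex at postnatal day 21 (P21) is described here, with all 16 P21 libraries of 28 RNA-seq libraries. These libraries were chosen by their labels alone. Of them, 8 were midbrain, 4 from Nova1 wt/wt mice and 4 from Nova1 hu/hu mice, and 8 were cortex, again 4 and 4. The remaining 12 libraries, embryonic midbrain, had no cortex counterpart and entered only an alternative fit. Nova1 wt/wt mice carry the mouse Nova1 gene, and Nova1 hu/hu mice carry on both alleles a human-type knock-in made by CRISPR/Cas9 editing, which differs from the mouse protein by a single amino acid. All mice were of a C57BL/6 background (BL6), and the knock-in line came from edited zygotes and was backcrossed to C57BL/6J. The labels give no treatment for any of these groups. RNA of a whole dissected block was measured, so a fold change does not tell apart fewer cells of a type from less RNA per cell.

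The cerebral cortex holds layered glutamatergic projection neurons, which load glutamate with the transporter encoded by Slc17a7, and locally projecting GABAergic interneurons. The midbrain lies between the forebrain and the hindbrain and holds the superior and inferior colliculi, the periaqueductal gray, dopaminergic and serotonergic nuclei and long ascending and descending fibre tracts, and its glutamatergic neurons mostly use the transporter encoded by Slc17a6. NOVA1 and its paralog NOVA2 are RNA-binding proteins that regulate alternative splicing in neurons.

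The libraries held 25256326 to 45134998 counts in midbrain (median 35888131) and 30423267 to 35643736 in cortex (median 31893254), of which the ribosomal RNA precursor Rn45s took 4.58% to 8.16% in midbrain and 2.54% to 8.56% in cortex. Across 16345 genes, log2 CPM (counts scaled to library size) of pairs of libraries correlated at 0.987 to 0.994 within midbrain, at 0.990 to 0.994 within cortex and at 0.935 to 0.945 between the regions, and region accounted for 77.5% of the variance between libraries. Each of the 4 groups held 2 female and 2 male mice by Xist and Y-linked genes. Same-numbered midbrain and cortex libraries were from mice of opposite sex and were therefore not taken as pairs. Within a region, however, same-numbered wt/wt and hu/hu libraries deviated together from their group means, with correlations across genes of 0.230 to 0.275 for the 4 pairs in midbrain and 0.193 to 0.252 for the 4 pairs in cortex. The same correlation was -0.00704 to 0.170 in midbrain and 0.0317 to 0.110 in cortex for libraries of the same sex and another number. Since the labels do not state which libraries shared a litter or a day of dissection, p-values measure the spread between these libraries, and region was also compared after summing same-numbered libraries to 4 midbrain and 4 cortex samples.

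To measure how the regions differ, each gene's counts were fitted with genotype and region as terms, and a gene was called when p was under 0.05 and the adjusted p under 0.1 (edgeR quasi-likelihood test, Benjamini-Hochberg adjustment). Of 16345 genes tested, 6194 (37.9%) were higher in midbrain and 6169 (37.7%) were higher in cortex, 75.6% in all. Most of these differences were small. The median absolute log2 fold change was 0.33 and the median standard error 0.056, and 1277 genes (7.81%) were called and at least 2-fold higher in midbrain against 1236 (7.56%) in cortex. At 4-fold the counts were 348 and 398, at 8-fold 151 and 154, and at 16-fold 96 and 73. For 9262 genes (56.7%) the 95% interval of the difference lay within 1.5-fold in either direction. With same-numbered libraries summed, 6027 genes were higher in midbrain and 6055 in cortex. The median log2 fold change over all tested genes was 0.00063. The scaling between libraries (TMM) places most genes near 0, so this median and the near equal counts in each direction follow in part from it. Scaled by library totals alone, the median was 0.016, with 6341 genes higher in midbrain and 5892 in cortex. Because about 3 in 4 genes were called, the counts of list members below are to be read against these shares. The 34 gene lists are textbook sets of cell type markers and gene families, chosen with earlier results of these data known. Their counts describe the regions and are not independent evidence.

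**Figure D1:**
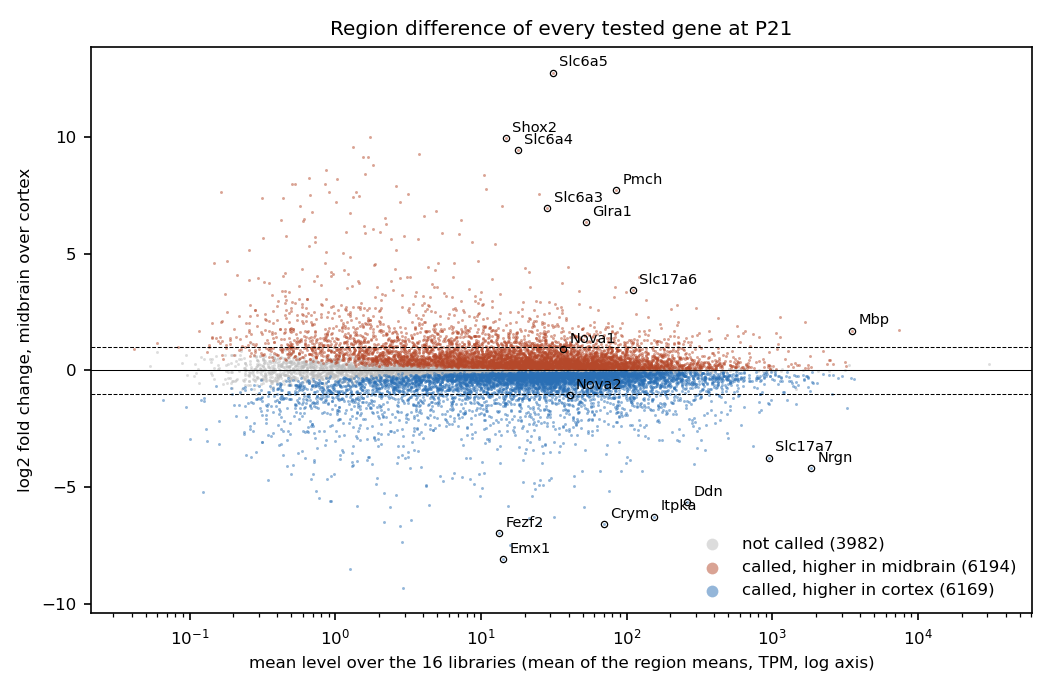
Log2 fold change of midbrain over cortex (vertical axis) against the mean TPM of the gene (horizontal axis, log scale) for 16345 genes, one point per gene, with dashed lines at 2-fold. Called genes spread to both sides, 6194 higher in midbrain and 6169 higher in cortex, a near balance that follows in part from the scaling between libraries. The named genes lie at the edges of the cloud, except Nova1 and Nova2 close to the 2-fold lines.

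Levels below are in TPM, counts per exon length scaled to the same total in each library, and are given as the lowest and highest of the 8 libraries of a region with the median. Fold changes are from the count fit, as log2 midbrain over cortex ± standard error, so a positive value is higher in midbrain. The standard error was taken as the log2 fold change over the square root of the test's F statistic. It is too small where a region holds only a few counts. Shox2, with 7 counts in cortex, has a standard error of 0.15, but its log2 fold change was 9.19 in wt/wt and 11.4 in hu/hu mice. Every gene given as higher or lower was called in the joint fit, and also in each genotype alone with the same direction except for Cux1, Ntsr1, Jun, Rarres2, Gabra6, Kiss1 and Gkn3. Genes for which only a fold change is printed were chosen after their values had been seen, as were Egr2, Fos, Arc, Jun, Gabra6 and Cbln3.

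Nova1, the edited gene, was higher in midbrain. Nova1 was at 45.7 to 52.7 TPM (median 48.2) in midbrain and at 22.9 to 25.5 TPM (median 24.5) in cortex, and no midbrain library overlapped a cortex library (0.93 ± 0.03). Such a lack of overlap was common, with 4593 of 16345 tested genes wholly higher in midbrain and 3133 wholly higher in cortex. Nova2 had the opposite order, with 26.2 to 29.5 TPM (median 27.2) in midbrain and 52.4 to 56.9 TPM (median 53.6) in cortex (-1.06 ± 0.03). On log2 TPM the difference between the regions was 1.0 for Nova1 and -0.98 for Nova2, each with an exact two-sided permutation p of 0.000155 over 8 against 8 libraries, the smallest this design can give. Because same-numbered libraries deviated together, their TPM were also averaged to 4 midbrain and 4 cortex values, which gave differences of 1.0 and -0.98 and an exact permutation p of 0.0286 for each gene, the smallest that 4 against 4 can give. The ratio of Nova1 to Nova2 TPM was 1.62 to 1.95 in the midbrain libraries and 0.424 to 0.486 in the cortex libraries. Neither gene passed the interaction test of region and genotype, with log2 fold changes of 0.91 in wt/wt and 0.94 in hu/hu for Nova1 (unadjusted p = 0.59, edgeR) and -1.07 and -1.05 for Nova2 (unadjusted p = 0.57, edgeR).

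The promoters of these paralogs, whose levels were ordered oppositely between the regions, are shown from 250 bases before to 50 bases after a RefSeq transcription start (build GRCm38.p6), which for Nova1 lies inside the annotated span of the gene, 5′ to 3′, with CG dinucleotides in capitals. The Nova1 sequence is chr12:46818718-46819017 on the minus strand and the Nova2 sequence chr7:18925638-18925937 on the plus strand.
Nova1: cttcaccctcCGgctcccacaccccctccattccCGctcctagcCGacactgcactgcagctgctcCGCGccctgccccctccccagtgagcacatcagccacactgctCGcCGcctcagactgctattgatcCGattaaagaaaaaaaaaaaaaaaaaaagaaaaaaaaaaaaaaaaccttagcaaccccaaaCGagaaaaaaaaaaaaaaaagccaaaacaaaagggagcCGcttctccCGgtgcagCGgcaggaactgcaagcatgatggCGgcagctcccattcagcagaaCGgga
Nova2: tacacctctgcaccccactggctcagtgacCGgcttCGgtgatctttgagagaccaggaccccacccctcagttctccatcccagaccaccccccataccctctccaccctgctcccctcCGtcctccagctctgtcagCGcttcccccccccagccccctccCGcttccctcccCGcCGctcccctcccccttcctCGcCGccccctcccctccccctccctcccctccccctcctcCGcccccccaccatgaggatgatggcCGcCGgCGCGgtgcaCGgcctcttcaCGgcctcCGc
The Nova1 window held 14 CG dinucleotides at a GC content of 51.7%, and the Nova2 window 17 at 71.3%. Over all 32851 windows of the same length the median was 7 CG dinucleotides and 52.7% GC.

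Of 25 tested neuronal splicing regulators, 7 were higher in midbrain, 15 were higher in cortex and 3 did not pass the test, with a median log2 fold change of -0.12. The CELF family of RNA-binding proteins ran from -2.38 to 0.55. Celf5 was at 23.4 to 29.7 TPM (median 27.6) in midbrain and 128 to 142 TPM (median 134) in cortex (-2.38 ± 0.04), and Celf4 at 183 to 197 TPM (median 189.9) and 295 to 339 TPM (median 311) (-0.79 ± 0.03). On the other side Qk, an RNA-binding protein abundant in glia, was at 216 to 269 TPM (median 238) in midbrain and 107 to 123 TPM (median 118) in cortex (0.95 ± 0.03). Among further members, the neuronal splicing factor Rbfox3 was lower in midbrain (-1.53), as was Khdrbs3 (-1.46), while the neuronal RNA-binding protein Elavl2 was higher (0.94). Ptbp1 (0.05), Elavl4 (-0.03) and Mbnl2 (-0.01) did not pass the test.

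The defining markers of the regions matched the labels in every library. The 8 cortical markers were all called higher in cortex, of which Emx1 and Fezf2 passed the filter on low counts only through cortex. Emx1, a forebrain transcription factor, was at 25.8 to 33.1 TPM (median 28.2) in cortex and 0 to 0.309 TPM (median 0.102) in midbrain (-8.07 ± 0.19). Fezf2, which specifies subcerebral projection neurons, was at 24.7 to 31.5 TPM (median 25.8) in cortex and 0.0937 to 0.460 TPM (median 0.192) in midbrain (-6.96 ± 0.13). Tbr1 of deep layers was at 56.1 to 66.2 TPM (median 62.8) and 0.586 to 1.08 TPM (median 0.854) (-6.27 ± 0.07). The basic helix-loop-helix factors of glutamatergic neurons followed the same order. Neurod6 was at 52.2 to 62 TPM (median 56.6) in cortex and 1.43 to 3.2 TPM (median 2.34) in midbrain (-4.71 ± 0.08), and Neurod2 at 44.5 to 56 TPM (median 48) and 1.93 to 4.84 TPM (median 3.46) (-3.95 ± 0.10).

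The 8 midbrain markers were all called higher in midbrain, of which En1, Gata3, Pax7 and Foxa2 passed the filter only through midbrain. En1, which patterns the midbrain and keeps dopamine neurons alive, was at 4.74 to 6.54 TPM (median 5.31) in midbrain and 0 to 0.109 TPM (median 0.0165) in cortex (7.21 ± 0.25). En2 was at 3.1 to 4.43 TPM (median 3.45) and 0.163 to 0.445 TPM (median 0.262) (3.58 ± 0.15), and Gata3 of midbrain GABAergic and serotonergic neurons at 8.79 to 11.4 TPM (median 9.82) and 0 to 0.149 TPM (median 0.0714) (6.83 ± 0.17). Pax7 of the superior colliculus was at 2.92 to 4.39 TPM (median 3.76) in midbrain, with 2 counts in all 8 cortex libraries against 1435 in midbrain, a ratio on library totals of 655 (95% exact interval 181 to 5412, counting error only). Foxa2 of the ventral midbrain was at 0.616 to 1.16 TPM (median 0.837) in midbrain and at 0 counts in every cortex library, so it was at least 52.0-fold higher, taking 3 counts over the cortex group as the floor.

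**Figure D2:**
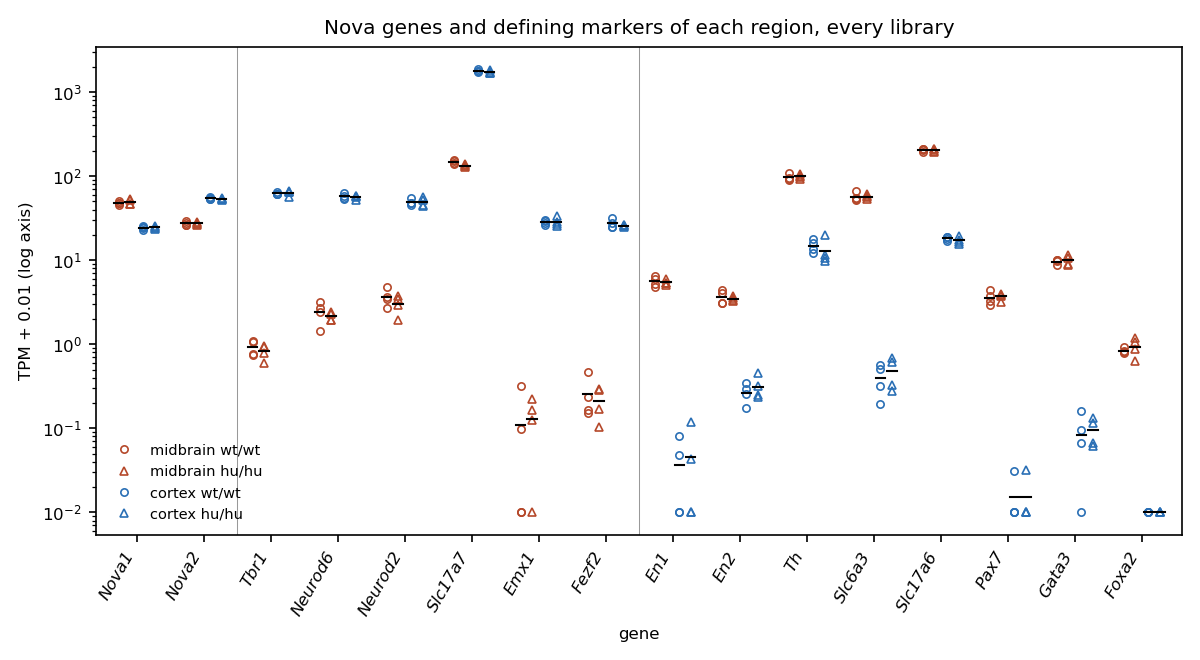
TPM plus 0.01 (vertical axis, log scale) of Nova1, Nova2, 6 cortical and 8 midbrain markers in each of the 16 libraries, with circles for wt/wt, triangles for hu/hu, red for midbrain, blue for cortex and a black bar at each group's mean of 4. The regions do not overlap for any of the 16 genes. The same held for 4593 of all 16345 tested genes with midbrain higher and for 3133 with cortex higher.

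Of 26 cortical projection neuron transcription factors, 3 passed the filter on low counts only through cortex. Of the 23 that passed it in both regions, 21 were higher in cortex and 2 in midbrain, with a median log2 fold change of -2.41. Lmo4, a LIM domain regulator of cortical patterning, was the most abundant at 211 to 232 TPM (median 222) in cortex and 38.5 to 47.7 TPM (median 43.7) in midbrain (-2.41 ± 0.03). Mef2c, a factor of maturing excitatory neurons, was lower in midbrain by a log2 fold change of -3.83. The 2 in the other direction were Cux1 (0.09) and Zfpm2, at 5.75 to 6.74 TPM (median 6.13) in midbrain and 4.22 to 4.92 TPM (median 4.49) in cortex (0.37 ± 0.05).

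Of 31 tested midbrain and brainstem transcription factors, 15 passed the filter on low counts only through midbrain, and these had to differ. Of the 16 that passed it in both regions, 14 were higher in midbrain and 2 in cortex, with a median log2 fold change of 1.64. Irx2, an Iroquois patterning factor, was at 19.9 to 22.5 TPM (median 20.8) in midbrain and 0 to 0.150 TPM (median 0.0368) in cortex (8.37 ± 0.14). Pou4f2, known from retinal ganglion cells and the colliculus, was at 2.22 to 3.24 TPM (median 2.68) in midbrain and at 0 counts in cortex, at least 239-fold higher by the same floor. Shox2, a homeobox factor of the tectum and thalamus that belongs to no list, was among the largest differences of all at 27.9 to 33.8 TPM (median 29) in midbrain and 0 to 0.0604 TPM (median 0.0295) in cortex (9.95 ± 0.15). Mab21l2, another tectal regulator, was at 6.69 to 12.3 TPM (median 11.8) and 0.0685 to 0.281 TPM (median 0.164) (5.86 ± 0.22). Its lowest midbrain values, 6.69 and 6.97 TPM, were in the hu/hu and wt/wt libraries of replicate 3, which were also lowest in Hox genes (below). Meis2 went the other way, at 31.9 to 40.2 TPM (median 36.8) in midbrain and 67.4 to 75 TPM (median 70.2) in cortex (-1.03 ± 0.04). The remaining exception was Otx1 (-0.78).

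Genes of other brain divisions were measured in the same blocks. Hox genes are expressed in hindbrain and spinal cord and not rostral to them. Of 29 Hox genes, 15 were tested, all of which passed the filter only through midbrain, and their TPM summed to 8.11 to 59.2 (median 33.9) in midbrain and 0.103 to 0.308 in cortex. The 2 lowest midbrain sums were both in replicate 3, 9.08 in hu/hu and 8.11 in wt/wt, whereas the other 6 midbrain libraries were at 30.6 or more. Hoxb5, the most abundant of them, was at 0.702 to 14.2 TPM (median 7.41) in midbrain, with 1 count in cortex, in hu/hu replicate 3, against 1301 in midbrain (ratio 1187, 95% exact interval 213 to 46928, counting error only). The part of hindbrain tissue in the midbrain values was not tested.

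Of 15 thalamic neuron genes, 1 passed the filter only through midbrain, and the other 14 were all called higher in midbrain, with a median of 2.44. The 15 had summed TPM of 1162 to 1367 in midbrain against 238 to 268 in cortex. Gbx2, required for thalamic development, was at 7.74 to 8.77 TPM (median 8.18) in midbrain and 0.215 to 0.587 TPM (median 0.317) in cortex (4.42 ± 0.14). Tcf7l2 (3.74), Prkcd (3.36) and Rora (1.47) were higher in midbrain too, and these genes are also expressed in parts of the midbrain.

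Of 11 hypothalamic peptide genes, 3 passed the filter only through midbrain (Hcrt, Pmch and Npvf) and Kiss1 only through cortex. Of the other 7, 6 were higher in midbrain and 1 did not pass the test, with a median of 2.52. Pmch, the precursor of melanin-concentrating hormone, was at 147 to 199.7 TPM (median 163) in midbrain and 0.133 to 1.34 TPM (median 0.747) in cortex (7.72 ± 0.14). Hcrt, the precursor of the orexins, was at 40.7 to 60 TPM (median 48.6) and 0 to 0.658 TPM (median 0.165) (7.54 ± 0.23). Oxytocin (Oxt, 3.41) and vasopressin (Avp, 2.69) were higher in midbrain as well. These peptides are made by neurons of the hypothalamus, and their summed TPM was 367 to 461 in midbrain and 14.5 to 47.9 in cortex. The part of hypothalamic tissue in the midbrain values was not tested. Rln3, the peptide relaxin-3 of the nucleus incertus in the pons, was at 15 to 25.7 TPM (median 22) in midbrain, with 3 counts in cortex, all in hu/hu replicate 1, against 944 in midbrain (ratio 287, 95% exact interval 98.0 to 1395, counting error only).

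Cerebellar neuron genes were mixed. Of 18 tested, Gabra6 and Cbln3 passed the filter only through midbrain, and of the other 16, 8 were higher in midbrain, 6 were higher in cortex and 2 did not pass the test (median 0.57). Gabra6, the receptor subunit of cerebellar granule cells, was at 0.186 to 7.07 TPM (median 2.02) in midbrain and 0 to 0.0777 TPM (median 0) in cortex (6.71 ± 0.87, and 7.44 without hu/hu replicate 2 of cortex). Cbln3, also from granule cells, was at 0.651 to 7.04 TPM (median 2.15) and 0.0813 to 0.401 TPM (median 0.132) (3.80 ± 0.44). Both were low, and their highest levels were in wt/wt replicate 4 of midbrain, 7.07 and 7.04 TPM. The cadherin Fat2 was at 1.31 to 3.08 TPM (median 1.54) in midbrain and 0.0321 to 0.166 TPM (median 0.119) in cortex (4.13 ± 0.23). Neurod1 was the member furthest in the other direction, at 2.53 to 6.49 TPM (median 2.99) in midbrain and 11 to 13 TPM (median 12) in cortex (-1.81 ± 0.14), and Pcp4 was the most abundant member, at 912 to 1132 TPM (median 1016) and 1131 to 1206 TPM (median 1149), with overlapping libraries (-0.26 ± 0.04).

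Genes known from neighbouring forebrain tissue were examined likewise. Of 14 tested striatal neuron genes, 11 were higher in cortex, 1 was higher in midbrain and 2 did not pass the test, with a median of -1.83. Adora2a, the adenosine receptor of indirect-pathway striatal neurons, was at 40.7 to 56.3 TPM (median 48.8) in cortex and 1.79 to 2.5 TPM (median 1.93) in midbrain (-4.69 ± 0.08). Ppp1r1b, which encodes DARPP-32, was at 486 to 603 TPM (median 531) and 31.8 to 44.6 TPM (median 35) (-3.99 ± 0.05), and Six3 was the exception (0.43 ± 0.06). Of 14 hippocampal neuron genes, Spink8 passed the filter only through cortex, and of the other 13, 10 were higher in cortex and 3 in midbrain (median -0.75). Spink8 was at 12 to 21.3 TPM (median 15.2) in cortex and 0.367 to 2.3 TPM (median 1.08) in midbrain (-3.75 ± 0.19). Prox1, a factor of dentate granule cells that other regions also express, was at 15.2 to 16.4 TPM (median 15.7) in midbrain and 5.95 to 7.33 TPM (median 6.48) in cortex (1.18 ± 0.05), and Nnat, the most abundant, at 261 to 306 TPM (median 285) and 286 to 338 TPM (median 311) (-0.22 ± 0.04). Many of these genes are also expressed in cortex itself, and the part of other forebrain tissue was not tested.

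**Figure D3:**
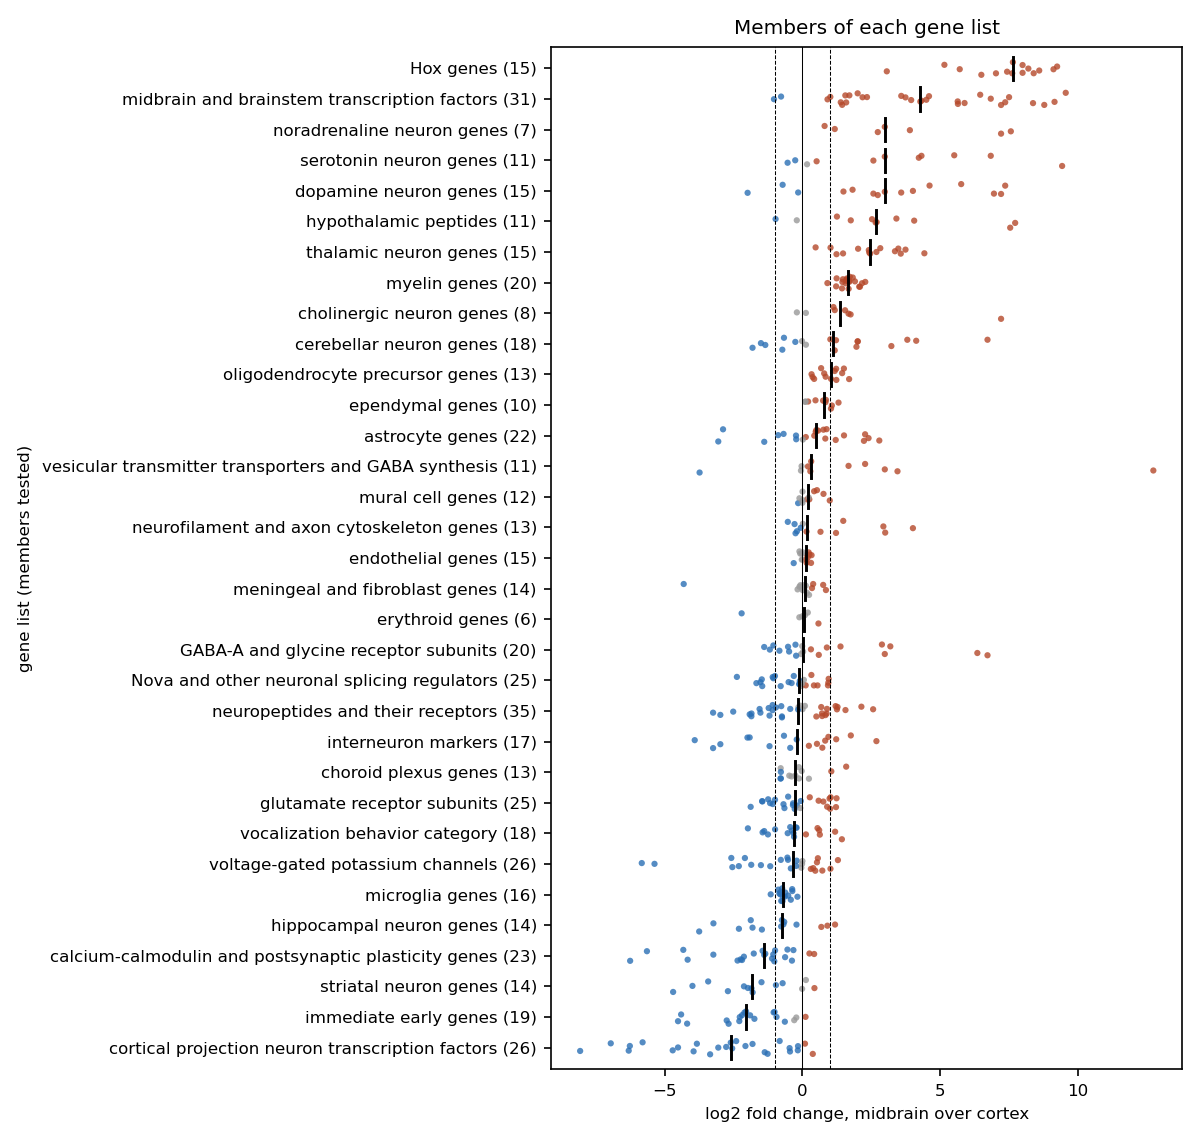
Log2 fold change of midbrain over cortex (horizontal axis) for each tested member of 33 gene lists (vertical axis, number tested in parentheses), with red for members called higher in midbrain, blue for higher in cortex, grey for not called, black bars at list medians and dashed lines at 2-fold. All 15 Hox genes and 15 of the 31 midbrain transcription factors shown passed the filter on low counts only through midbrain, so their place on the right is fixed in part by the filter. Myelin and microglia genes each lie on one side of 0.

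The transmitter systems divided the regions. Slc17a7, the vesicular glutamate transporter of cortical neurons, was at 1684 to 1868 TPM (median 1768) in cortex and 129 to 155 TPM (median 138) in midbrain (-3.73 ± 0.03). Slc17a6, the transporter of subcortical glutamatergic neurons, was at 193 to 212 TPM (median 205) in midbrain and 15.5 to 19.5 TPM (median 17.5) in cortex (3.45 ± 0.04). GABA synthesis differed little in comparison. Gad1 did not pass the test (-0.06), and Gad2 (0.32) and the vesicular GABA transporter Slc32a1 (0.29) were slightly higher in midbrain. Of the 11 vesicular transporter and GABA synthesis genes, Slc6a5 passed the filter only through midbrain, and of the other 10, 7 were higher in midbrain, 1 was higher in cortex and 2 did not pass the test (median 0.30). Slc6a5, the transporter that reloads glycine into glycinergic neurons, was at 38.1 to 75.7 TPM (median 67.6) in midbrain, and its cortex libraries held 1 count in total, in hu/hu replicate 2, against 14929 in midbrain (ratio 13623, 95% exact interval 2445 to 538122, counting error only). Its 2 lowest midbrain values, 38.1 and 41.4 TPM, were in the 2 libraries of replicate 3 that were also lowest in Hox genes. Glra1, the adult glycine receptor subunit, was at 79.4 to 119 TPM (median 112) in midbrain and 0.574 to 2.06 TPM (median 1.08) in cortex (6.35 ± 0.14), again lowest in the replicate 3 libraries, and Glrb, its beta subunit, was at 232 to 270 TPM (median 249.7) and 145 to 169 TPM (median 157) (0.59 ± 0.04).

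Dopamine neuron genes were mostly higher in midbrain. Of 15 tested, 3 passed the filter only through midbrain, and of the other 12, 9 were higher in midbrain and 3 in cortex (median 2.65). Th, the rate-limiting enzyme of dopamine synthesis, was at 89.9 to 108 TPM (median 96) in midbrain and 9.83 to 19.8 TPM (median 12.9) in cortex (2.73 ± 0.10). Slc6a3, the dopamine transporter, was at 51.5 to 66.2 TPM (median 56) and 0.185 to 0.684 TPM (median 0.407) (6.95 ± 0.11). Aldh1a1, most abundant of the list, was at 290 to 335 TPM (median 318) in midbrain and 90.7 to 122 TPM (median 109) in cortex (1.49 ± 0.05). The exceptions were Nr4a2, at 8.25 to 10 TPM (median 9.17) in midbrain and 31.5 to 38.6 TPM (median 34.1) in cortex (-1.99 ± 0.05), the receptor Drd2 (-0.72) and the neurotensin receptor Ntsr1 (-0.16). Nr4a2 is required for dopamine neurons and is also expressed in deep cortical layers and the claustrum.

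The other monoamine systems and the cholinergic system were led by genes higher in midbrain. Of 11 serotonin neuron genes, 4 passed the filter only through midbrain, and of the other 7, 4 were higher in midbrain, 2 were higher in cortex and 1 did not pass the test (median 0.51). Slc6a4, the serotonin transporter, was at 29.2 to 41.7 TPM (median 36.1) in midbrain and 0 to 0.166 TPM (median 0.0343) in cortex (9.42 ± 0.17, and 10.04 without wt/wt replicate 4 of cortex), and Ddc, the decarboxylase shared with dopamine neurons, at 100.2 to 118 TPM (median 111) and 13.5 to 20.7 TPM (median 18) (2.57 ± 0.06). The receptor Htr1a, which many cortical neurons carry, was at 7.15 to 9.04 TPM (median 7.92) in midbrain and 9.71 to 11.9 TPM (median 11.1) in cortex (-0.54 ± 0.06). Of 7 noradrenaline neuron genes, 2 passed the filter only through midbrain, and the other 5 were called higher in midbrain (median 2.73). Slc6a2, the noradrenaline transporter, was at 5.22 to 7.53 TPM (median 6.17) and 0 to 0.132 TPM (median 0.0145) (7.56 ± 0.24, and 8.49 without wt/wt replicate 3 of cortex), and the synthesis enzyme Dbh differed by 3.90. Of 8 cholinergic neuron genes, 1 passed the filter only through midbrain, and of the other 7, 5 were higher in midbrain and 2 did not pass the test (median 1.17). Ache, which hydrolyses acetylcholine, was at 119 to 132 TPM (median 125) in midbrain and 35.5 to 44 TPM (median 41.2) in cortex (1.55 ± 0.03).

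Interneuron markers did not share a direction, with 8 of 17 higher in midbrain and 9 higher in cortex (median -0.21). Lhx6, which marks interneurons born in the medial ganglionic eminence, was at 17.4 to 20.4 TPM (median 19.1) in cortex and 0.731 to 2.19 TPM (median 1.25) in midbrain (-3.91 ± 0.12). Sst was at 702 to 854 TPM (median 729) and 302 to 377 TPM (median 340.4) (-1.20 ± 0.04), and Vip at 58.4 to 69.5 TPM (median 61.8) and 5.6 to 8.37 TPM (median 6.89) (-3.24 ± 0.07). A pair of calcium-binding markers had the opposite order. Calb2, which encodes calretinin, was at 472 to 559 TPM (median 520.2) in midbrain and 69.4 to 88.3 TPM (median 75.6) in cortex (2.68 ± 0.05), and Pvalb differed by 1.22.

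Of 35 neuropeptides and their receptors, Ucn passed the filter only through midbrain, and of the other 34, 12 were higher in midbrain, 18 were higher in cortex and 4 did not pass the test (median -0.30). Gal, the precursor of galanin, was at 37.7 to 46.3 TPM (median 38.3) in midbrain and 3.43 to 9.43 TPM (median 6.62) in cortex (2.56 ± 0.12). Npy (-2.98), Cck (-1.92) and the opioid precursors Penk (-1.85) and Pdyn (-1.85) were lower in midbrain. Cort, which encodes cortistatin and is not in the list, was at 42.4 to 54.7 TPM (median 50.9) in cortex and 0 to 1.12 TPM (median 0.554) in midbrain (-6.51 ± 0.22).

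Receptor and channel families held members higher in either region, as did all tested genes, with 37.9% higher in midbrain and 37.7% higher in cortex. Of 25 glutamate receptor subunits, 9 were higher in midbrain, 15 were higher in cortex and 1 did not pass the test (median -0.28). Grin2b, the NMDA receptor subunit of forebrain neurons, was at 56.6 to 66.6 TPM (median 63.6) in cortex and 13.4 to 22.8 TPM (median 16.5) in midbrain (-1.88 ± 0.08), and the kainate receptor subunit Grik5 at 343 to 383 TPM (median 372) and 133 to 146 TPM (median 141) (-1.47 ± 0.03). Grin3b, the member furthest in the other direction, was at 2.52 to 4.11 TPM (median 3.49) in midbrain and 1.04 to 1.77 TPM (median 1.35) in cortex (1.24 ± 0.13), and Grin2d (0.89) and Gria4 (0.76) were also higher in midbrain. Of 20 GABA-A and glycine receptor subunits, Gabra6 and Glra4 passed the filter only through midbrain, and of the other 18, 7 were higher in midbrain, 8 were higher in cortex and 3 did not pass the test (median -0.03). Gabra5 was at 75.7 to 84.3 TPM (median 80.9) in cortex and 30.6 to 36.6 TPM (median 32.1) in midbrain (-1.39 ± 0.04). The subunit Gabrb2 did not pass the test (-0.01, standard error 0.05).

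Of 26 voltage-gated potassium channel genes, 8 were higher in midbrain, 15 were higher in cortex and 3 did not pass the test (median -0.33). Kcnh3, a channel of the forebrain, was at 87.8 to 109 TPM (median 98.7) in cortex and 1.53 to 2.39 TPM (median 1.74) in midbrain (-5.83 ± 0.07). Kcnv1, a modulatory subunit, was at 38.9 to 48.2 TPM (median 43.5) and 0.885 to 1.65 TPM (median 1.11) (-5.37 ± 0.08). The axonal channels Kcna1 (1.02) and Kcna2 (0.56) had the opposite order and were higher in midbrain.

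Genes of the postsynaptic calcium response were higher in cortex, 21 of 23 tested against 2 higher in midbrain (median -1.39). Nrgn, the calmodulin-binding protein neurogranin, was among the 5 most abundant cortex transcripts at 3116 to 3911 TPM (median 3558), against 166 to 244 TPM (median 200.3) in midbrain (-4.17 ± 0.07). Itpka, an inositol trisphosphate kinase of dendritic spines, was at 285 to 328 TPM (median 305) in cortex and 3.41 to 5.44 TPM (median 3.94) in midbrain (-6.25 ± 0.06), and Ddn, which encodes dendrin, at 465 to 569 TPM (median 510.3) and 9.86 to 12.4 TPM (median 10.4) (-5.65 ± 0.05). The kinase subunit Camk2a differed by -3.23, whereas its paralog Camk2d was at 54.8 to 62.6 TPM (median 57) in midbrain and 37.8 to 44.9 TPM (median 41.2) in cortex (0.42 ± 0.03). Calm2, which encodes calmodulin, was at 3282 to 3535 TPM (median 3403) in cortex and 1703 to 1827 TPM (median 1758) in midbrain (-1.02 ± 0.02). Other genes that led in cortex were Crym, a thyroid hormone binding protein, at 132 to 152 TPM (median 139) against 0.868 to 3.04 TPM (median 1.43) in midbrain (-6.57 ± 0.11), and the unnamed transcript Gm11549 at 28.9 to 34.3 TPM (median 31.1) against 0.0668 to 0.338 TPM (median 0.157) (-7.49 ± 0.12). Nov, a secreted matricellular protein, was at 153 to 195 TPM (median 175) in cortex and 7.51 to 12.1 TPM (median 9.25) in midbrain (-4.31 ± 0.07).

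Immediate early genes, which neurons transcribe within minutes of activity, were mostly higher in cortex. Of 19 tested, Egr3 passed the filter only through cortex, and of the other 18, 15 were higher in cortex, 1 was higher in midbrain and 2 did not pass the test (median -1.97). Egr3 was at 57.7 to 102 TPM (median 86.9) in cortex and 1.32 to 6.4 TPM (median 3.47) in midbrain (-4.52 ± 0.20), and Egr1 at 111 to 286 TPM (median 207) and 21.6 to 44.5 TPM (median 33.9) (-2.75 ± 0.19). Egr3 held only 1129 counts over all cortex libraries and 53 over all midbrain libraries, against 56639 and 9239 for Egr1. Its TPM thus rests on few counts over a much shorter exon length than that of Egr1. Fos itself overlapped between the regions, at 7.6 to 48.4 TPM (median 24.4) in cortex and 12.6 to 38.4 TPM (median 24.1) in midbrain, and did not pass the test (-0.22 ± 0.31, adjusted p = 0.53, edgeR). Arc was at 32 to 295 TPM (median 69.1) in cortex and 19.7 to 32.2 TPM (median 27.2) in midbrain, with overlap (-2.29 ± 0.39). Jun was at 29.8 to 34.2 TPM (median 32.8) in midbrain and 25.9 to 32.8 TPM (median 28.6) in cortex with overlap (0.11 ± 0.05, adjusted p = 0.032, edgeR). It was called higher in midbrain here, but not when hu/hu replicate 1, wt/wt replicate 1 or wt/wt replicate 4 of cortex was left out (0.09 to 0.10).

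The immediate early levels also differed between libraries of a region by replicate number. Their summed TPM in cortex was 523 and 565 in the wt/wt and hu/hu libraries of replicate 1, 1331 and 1292 in those of replicate 2, 989 and 844 in replicate 3, and 704 and 683 in replicate 4. In midbrain the corresponding sums were 276 and 276, 206 and 212, 218 and 224, and 285.0 and 275. The lowest cortex sum was thus above the highest midbrain sum.

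The promoter of Egr2, called lower in midbrain at 0.133 to 0.576 TPM (median 0.359) against 1.34 to 12.8 TPM (median 4.96) in cortex (-4.19 ± 0.46), is shown. Among the immediate early genes with an entry, Egr2 alone held a CArG box, the site bound by serum response factor, in the windows searched. The windows covered 300 bases, so sites outside them were not searched and the other genes may not lack one. The Egr2 window is chr10:67537316-67537615 (GRCm38.p6) on the plus strand, from 250 bases before to 50 after one of its RefSeq starts, with the box in capitals.
Egr2: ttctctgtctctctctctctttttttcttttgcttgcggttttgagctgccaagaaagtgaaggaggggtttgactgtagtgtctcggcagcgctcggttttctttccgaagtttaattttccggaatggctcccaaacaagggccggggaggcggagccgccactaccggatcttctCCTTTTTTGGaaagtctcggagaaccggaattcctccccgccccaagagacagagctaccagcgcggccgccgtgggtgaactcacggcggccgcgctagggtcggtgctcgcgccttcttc
Of 14 immediate early genes with an entry, 1 held a CArG box on either strand, and 4 of the 5 Egr2 windows in the table held it. Of all 32851 windows, 1.63% held a CArG box. Egr2 and this motif were chosen after the values had been seen.

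Genes of the axon cytoskeleton were divided. Of 13 tested neurofilament and axon cytoskeleton genes, 7 were higher in midbrain, 5 were higher in cortex and 1 did not pass the test (median 0.15), and the intermediate filament genes among them were higher in midbrain with Nefh at 3.0, Prph at 2.94, Nefm at 1.48 and Nefl at 1.22. Sncg, which encodes gamma-synuclein, was at 179.5 to 256 TPM (median 231) in midbrain and 9 to 16.5 TPM (median 13.4) in cortex (4.01 ± 0.09). Uchl1 was the most abundant member at 1875 to 2062 TPM (median 1979.9) and 1644 to 1756 TPM (median 1687) (0.15 ± 0.02), and Stmn1, a microtubule regulator of growing axons, was at 571 to 612 TPM (median 588) in cortex and 411 to 449 TPM (median 429.8) in midbrain (-0.53 ± 0.03).

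Myelin genes shared a direction. All 20 tested were called higher in midbrain, 19 of them at least 2-fold, with a median log2 fold change of 1.64 and a range of 0.90 to 2.28. Mbp, which encodes myelin basic protein, was at 5231 to 5939.5 TPM (median 5426) in midbrain and 1486 to 1755 TPM (median 1586) in cortex (1.70 ± 0.03). Trf, which encodes the iron carrier transferrin made by oligodendrocytes, was at 1651 to 2066 TPM (median 1912) in midbrain and 352 to 408 TPM (median 374) in cortex (2.28 ± 0.04). The summed TPM of the list was 27684 to 31202 in midbrain and 8190 to 9140 in cortex. The TPM of a library add up to a constant, so a larger myelin share goes with lower TPM of other genes, and fold changes are therefore taken from counts with TMM factors.

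All 13 genes of the oligodendrocyte precursor list, which also holds genes of newly forming oligodendrocytes, were called higher in midbrain too. Of these, 7 were at least 2-fold higher (median 1.04). Enpp6, which marks newly forming oligodendrocytes, was at 40.6 to 50.6 TPM (median 44.5) in midbrain and 12 to 14.2 TPM (median 13.2) in cortex (1.69 ± 0.05), and Bcas1 at 433 to 482 TPM (median 458) and 135 to 172 TPM (median 154) (1.5 ± 0.04). The precursor receptor Pdgfra differed less, by 0.37, as did Cspg4, by 0.42.

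Astrocyte genes went both ways, with 14 of 22 higher in midbrain, 7 higher in cortex and 1 not passing the test (median 0.49). Agt, which encodes angiotensinogen, was at 362 to 414 TPM (median 394) in midbrain and 44.5 to 60.6 TPM (median 53.7) in cortex (2.79 ± 0.05). The GABA transporter Slc6a11 (2.23) and the glycine transporter Slc6a9 (2.27) were higher in midbrain, while the glutamate transporters Slc1a2 (-0.69) and Slc1a3 (-0.88) were lower. Lhx2, a forebrain factor, was at 48.2 to 65.7 TPM (median 55.8) in cortex and 6.21 to 8.54 TPM (median 6.9) in midbrain (-3.06 ± 0.07). Aldoc was the most abundant at 2716 to 3082 TPM (median 2889.8) and 1914 to 2190.4 TPM (median 2069) (0.43 ± 0.03). Apoe, the apolipoprotein of astrocytes, was among the 5 most abundant midbrain transcripts at 3384 to 3878 TPM (median 3644), against 2383 to 2975 TPM (median 2706) in cortex (0.37 ± 0.03).

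All 16 microglia genes were called higher in cortex, with a median of -0.72, and 1 of them differed by more than 2-fold. That gene was Aif1, which encodes the microglial protein IBA1, at 18.7 to 24.4 TPM (median 21.3) in cortex and 6.45 to 15.8 TPM (median 8.37) in midbrain (-1.15 ± 0.15). The homeostatic markers Cx3cr1 (-0.72), P2ry12 (-0.71) and Tmem119 (-0.77) lay close to each other.

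Genes of vascular and lining cells were compared next. Of 15 endothelial genes, 8 were higher in midbrain, Gkn3 was higher in cortex (-0.32) and 6 did not pass the test (median 0.14), and no called member differed by 2-fold. The glucose transporter Slc2a1 was at 189 to 252 TPM (median 215) in midbrain and 138 to 209 TPM (median 159.9) in cortex, with overlap (0.33 ± 0.08). Of 12 mural cell genes, 6 were higher in midbrain, 1 was higher in cortex and 5 did not pass the test (median 0.20). Notch3 of vascular smooth muscle was at 18.6 to 22.6 TPM (median 22.1) and 9.5 to 11.2 TPM (median 10.3) (0.99 ± 0.04), and Vtn of pericytes at 118 to 143 TPM (median 132) and 113 to 136 TPM (median 124) (0.00 ± 0.04, adjusted p = 0.99, edgeR). Of 10 ependymal genes, 8 were higher in midbrain and 2 did not pass the test (median 0.79). The cilium gene Hydin was at 0.929 to 1.27 TPM (median 1.01) in midbrain and 0.303 to 0.573 TPM (median 0.374) in cortex (1.31 ± 0.12), and Rarres2 at 73.4 to 87.1 TPM (median 83.4) and 57 to 76.6 TPM (median 67.7) (0.20 ± 0.06, with overlap).

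Choroid plexus genes varied widely between midbrain libraries, with summed TPM of 32.8 to 3108 there and 1182 to 2243 in cortex. Of 13 choroid plexus genes, 2 were higher in midbrain, 3 were higher in cortex and 8 did not pass the test. Ttr, the transthyretin secreted by choroid plexus, was at 1135 to 2172 TPM (median 1900.4) in cortex and at 9.02 to 2994 TPM (median 677) in midbrain, and did not pass the test (-0.79 ± 0.59, adjusted p = 0.23, edgeR). The 2 highest midbrain values, 2994 and 2805 TPM, were in the libraries of replicate 1, and the 2 lowest, 9.02 and 39.3 TPM, in hu/hu replicate 3 and wt/wt replicate 2. Otx2, which the choroid plexus and the midbrain share, was at 7.2 to 13.5 TPM (median 9.01) in midbrain and 2.31 to 3.83 TPM (median 3.13) in cortex (1.59 ± 0.14). Abhd12b, an uncharacterized hydrolase, was at 7.91 to 21.9 TPM (median 14.6) in midbrain and 0 to 0.394 TPM (median 0.112) in cortex (6.44 ± 0.34).

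**Figure D4:**
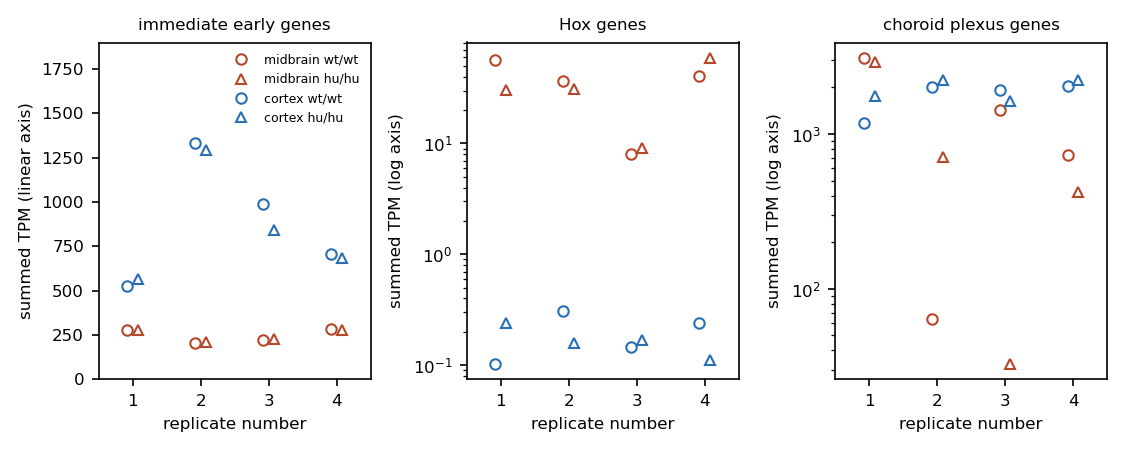
Summed TPM of immediate early genes (linear axis) and of Hox genes and choroid plexus genes (log axes) against the replicate number of each of the 16 libraries, with circles for wt/wt, triangles for hu/hu, red for midbrain and blue for cortex. The highest cortex sums of immediate early genes are 1331 and 1292 in replicate 2, and the lowest midbrain Hox sums are 8.11 and 9.08 in replicate 3.

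The study asked about vocal behaviour, and a list of 21 genes of the Gene Ontology category of vocalization behaviour, not its full membership, was measured. Of the 18 tested, each was called, 6 higher in midbrain and 12 higher in cortex (median -0.32). Myh14, a nonmuscle myosin heavy chain known for its role in hearing, was at 51.1 to 66.4 TPM (median 60.6) in midbrain and 17.8 to 24.1 TPM (median 21.3) in cortex (1.43 ± 0.06). Foxp1 was at 44.2 to 50.9 TPM (median 45.7) in cortex and 12 to 13.2 TPM (median 12.3) in midbrain (-1.98 ± 0.03), whereas its paralog Foxp2 was higher in midbrain (0.63). Dlg4, which encodes the postsynaptic scaffold PSD-95, was the most abundant at 1323 to 1428 TPM (median 1382) in cortex and 495 to 541 TPM (median 535) in midbrain (-1.45 ± 0.02). Cntnap2 (0.61) and Srpx2 (1.18) were higher in midbrain, and Shank1 (-0.99) and Shank2 (-1.39) in cortex. The shares of 6 and 12 in 18 are to be read against the 37.9% and 37.7% of all genes.

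The region difference was then measured in each genotype alone, with 4 midbrain against 4 cortex libraries. In wt/wt mice 5359 of 15909 genes (33.7%) were higher in midbrain and 5299 (33.3%) in cortex, and in hu/hu mice 5412 of 16058 (33.7%) and 5552 (34.6%). Over the 15839 genes tested in both, the log2 fold changes of the genotypes correlated at a Pearson r of 0.973 and a Spearman rho of 0.948, a description across genes that are not independent replicates. Of the genes called in wt/wt mice, 90.9% were called in hu/hu mice, and 88.4% of those called in hu/hu mice were called in wt/wt mice. Of the 9693 called in both, 1 had opposite directions. Of the 2513 genes called at 2-fold in the joint fit, 2293 (91.2%) were called in each genotype with the same direction. The other 220 were mostly of low level, with a median of 0.738 TPM in the higher region against 15 TPM for the 2293.

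No gene's region difference was called different between the genotypes. The interaction of region and genotype gave 0 calls of 16345 (0.0%) with edgeR, 0 with DESeq2 and 0 with limma-voom. With edgeR, 373 genes (2.28%) had an unadjusted p under 0.05. That is below the share of 0.05 that a well calibrated test gives without any difference. The lack of calls therefore does not show that the region differences are equal in the genotypes. With same-numbered wt/wt and hu/hu libraries of a region as pairs, 0 were called and 598 had an unadjusted p under 0.05. The 5 genes with the smallest p were Slc25a35, Myh2, Cyp2j12, Cdca7l and Aldh3a1, each with an adjusted p of 0.9999 in this edgeR test. Cyp2j12, a cytochrome of the CYP2J family, differed between the regions by 2.58 in wt/wt and 1.79 in hu/hu mice, and was at 10.7 to 15.1 TPM (median 11.9) in midbrain and 1.48 to 3.44 TPM (median 2.61) in cortex. Cdca7l differed by -0.73 and 0.59 and overlapped between the regions, at 0.713 to 2.77 TPM (median 1.38) and 1.03 to 1.84 TPM (median 1.52).

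**Figure D5:**
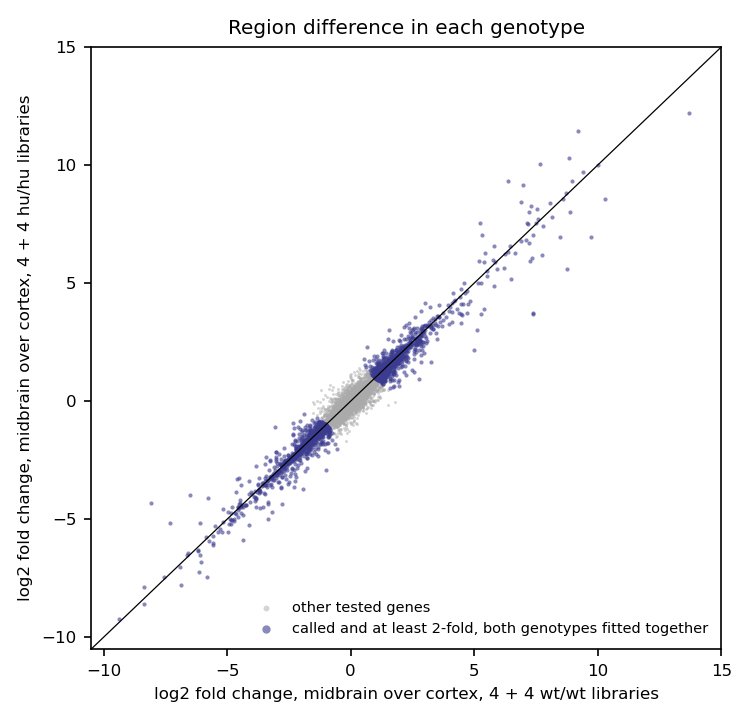
Log2 fold change of midbrain over cortex in the hu/hu libraries (vertical axis) against that in the wt/wt libraries (horizontal axis) for 15839 genes, with genes called at 2-fold in the joint fit in dark blue and the line of equality in black. Points follow the line (Pearson r 0.973), and 2293 of the 2513 genes called at 2-fold were called in both genotypes with the same direction.

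Among the most abundant transcripts, several did not separate the regions. Rn45s was at 23999 to 43931 TPM (median 35272) in midbrain and 12683 to 44562 TPM (median 27260) in cortex, with overlap (0.28 ± 0.20, adjusted p = 0.19, edgeR), and Lars2 at 2427 to 4688 TPM (median 3785) and 1842 to 4381 TPM (median 2872) (0.21 ± 0.16, adjusted p = 0.23, edgeR). Lars2 encodes a mitochondrial leucyl-tRNA synthetase. Lars2 and Rn45s were lowest in the same library of each region, wt/wt replicate 1 of midbrain and hu/hu replicate 4 of cortex. The source of the Lars2 reads was not tested. The abundant cortex transcripts Cpe, a peptide-processing enzyme, and Cst3, a protease inhibitor, differed by -0.36 ± 0.03 and -0.34 ± 0.03. Sepw1, which encodes a selenoprotein, was at 4496 to 5091 TPM (median 4914) in cortex and 1544 to 1808 TPM (median 1699) in midbrain (-1.59 ± 0.03).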

How the data were processed

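Total RNA of dissected P21 cortex and midbrain was poly(A)-selected and sequenced in paired ends. The authors aligned reads to mm10 with OLego and summarized them per gene with Quantas; whether strand was used is not given in the sources used here. The deposited values used were estimated counts per gene, which were not whole for every gene and were rounded for the tests; the deposited RPKM followed from these counts and was not used further. Libraries held 25256326 to 45134998 counts, and shares and intervals cover counting error only. Groups came from the labels. Genes passing filterByExpr over the 4 groups were fitted with edgeR 4.0.16 in R 4.3.3 (TMM, quasi-likelihood, genotype and region as terms), in each genotype alone, and with an interaction; a call needed p under 0.05 and an adjusted p under 0.1 (Benjamini-Hochberg). DESeq2 1.42.0 and limma 3.58.1 (limma-voom) were alternatives. TPM was computed from unrounded counts and exon lengths. Promoter sequences are from RefSeq (GRCm38.p6). Genes named with full values were, among those called alike in the joint fit and each genotype alone, the 12 largest log2 fold changes in each direction at a mean of at least 10 TPM and the extremes of each list. Called or not, they were also the 5 most abundant per region, Nova1, Nova2, defining markers, the most abundant member of each list and the 5 smallest interaction p. Values of some genes that met this rule are not reported here. The members and lists were chosen with earlier results of these data known. Alternatives left out each library, changed the tool, scaling, filter or threshold, blocked by replicate number, or used all 28 libraries; the analyses by sex, with Rn45s and Lars2 left out, with the other edgeR dispersion method, with same-numbered libraries summed or averaged, and with pairs across genotypes were chosen after seeing the data.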

Additional observations from a re-analysis of the deposited data

Results flagged for a closer look

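Of 589 groups of 4 libraries examined, 37 (6.28%) held a library whose gap to the nearest of the others was above Dixon's 95% critical value as a share of the group's range, where chance gives about 1 in 20. The values follow by library, as TPM of a gene or summed TPM of a list. Several cortex values rest on 1 to 3 counts in 1 library where the others were at 0. Such values are flagged by construction, so the 6.28% cannot be read as an excess over 1 in 20. Shox2 at 0.0314 TPM and Rln3 at 0.630 TPM stood apart in hu/hu replicate 1 of cortex. The summed noradrenaline neuron genes at 63.2 TPM, the summed thalamic neuron genes at 268 TPM, Slc6a5 at 0.0328 TPM, Hcrt at 0.430 TPM, Pcp4 at 1184 TPM, Arc at 295 TPM and Gabra6 at 0.0678 TPM stood apart in hu/hu replicate 2 of cortex. Hoxb5 at 0.0445 TPM stood apart in hu/hu replicate 3 of cortex. Pax7 at 0.0216 TPM and Sst at 854 TPM stood apart in hu/hu replicate 4 of cortex. The summed choroid plexus genes at 1182 TPM, Ttr at 1135 TPM and Gabra6 at 0.0777 TPM stood apart in wt/wt replicate 1 of cortex. The summed ependymal genes at 112 TPM, the summed erythroid genes at 2006 TPM, Qk at 107 TPM and Hba-a2 at 817 TPM stood apart in wt/wt replicate 2 of cortex. Pax7 at 0.0211 TPM and Slc6a2 at 0.132 TPM stood apart in wt/wt replicate 3 of cortex. Otx2 at 13.5 TPM stood apart in hu/hu replicate 1 of midbrain. Foxp1 at 13.2 TPM stood apart in hu/hu replicate 3 of midbrain. Ddc at 107 TPM, Gabra5 at 36.6 TPM, Agt at 362 TPM and Cyp2j12 at 15.1 TPM stood apart in hu/hu replicate 4 of midbrain. Gata3 at 8.84 TPM and Camk2d at 62.6 TPM stood apart in wt/wt replicate 1 of midbrain. Slc6a4 at 29.2 TPM, Nnat at 306 TPM and Egr2 at 0.576 TPM stood apart in wt/wt replicate 2 of midbrain. The summed voltage-gated potassium channels at 851 TPM, Mab21l2 at 6.97 TPM, Crym at 3.04 TPM and Calb2 at 559 TPM stood apart in wt/wt replicate 3 of midbrain. Gal at 44.0 TPM stood apart in wt/wt replicate 4 of midbrain.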

How the results depend on the processing

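The counts of genes called kept their size, within 1.5 times, under all alternatives but one. Tested against a 1.5-fold change (glmTreat), 2016 genes were higher in midbrain and 1882 in cortex, fewer by construction. Leaving out each library in turn gave 6121 to 6174 genes higher in midbrain and 6107 to 6186 in cortex, 5158 to 5299 and 5064 to 5258 in wt/wt mice, and 5245 to 5399 and 5280 to 5406 in hu/hu mice. With a replicate block, 6161 genes were higher in midbrain and 6135 in cortex. The block pairs midbrain and cortex libraries of the same number, which were from mice of opposite sex. Their deviations correlated at -0.216 to -0.119, in the same range as the -0.223 to -0.117 of opposite-sex pairs of other numbers. These correlations thus do not tell whether same-numbered libraries share more than a number. Scaling by library totals alone gave 6341 and 5892. Female libraries alone gave 5583 and 5540, male libraries alone 5485 and 5490, and a fit of all 28 libraries 6039 and 5949. The interaction gave 0 calls in every fit run, with 329 unadjusted p under 0.05 with the replicate block, 354 with DESeq2 and 352 with limma-voom. Of 4022 values of 123 named genes under the alternatives, 3981 kept direction and call, 22 lost the call, 19 gained it and 0 reversed. Ttr gained a call in some alternatives. Genes at a few counts are limited by depth, and region differences carry whatever the dissections included.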

Other observations

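Of 14 meningeal and fibroblast genes, 4 were higher in midbrain, 1 was higher in cortex and 9 did not pass the test (median 0.09). Ptgds, the prostaglandin D synthase of the meninges, overlapped between the regions at 2533 to 3854 TPM (median 3228) in midbrain and 2635 to 3350.2 TPM (median 3119) in cortex, with a log2 fold change of 0.01 ± 0.06 (adjusted p = 0.91, edgeR). Of 6 tested erythroid genes, Hba-a1 passed the filter on low counts only through midbrain, and of the other 5, 1 was higher in cortex and 4 did not pass the test. Hba-a2, which encodes alpha globin, was at 540.2 to 796 TPM (median 703) in midbrain and 470.4 to 817 TPM (median 589.9) in cortex (0.09 ± 0.09, adjusted p = 0.40, edgeR).

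A few genes were nearly confined to one region. At 1 TPM or more in all 8 libraries of a region and under 0.1 TPM in all 8 of the other, 12 genes were found in midbrain and 3 in cortex, chosen after their values had been seen. The midbrain genes included C130021I20Rik, Cga, Foxb1, Hoxb3, Pax7, Pou4f2, Pyy, Shox2, Slc6a5 and Sox14, of which Slc6a5 had a mean level of 62.6 TPM and Shox2 of 29.8 TPM. Among them Pyy encodes peptide YY (5.27 TPM) and Cga the alpha subunit of pituitary glycoprotein hormones (2.93 TPM). The cortex genes were Akr1c18 (5.85 TPM), C030018K13Rik (2.53 TPM) and Ccdc129 (1.83 TPM).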
